A study of Bos taurus with 20 samples.

Results

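The SLC25 genes encode the mitochondrial carriers, the family of proteins that move metabolites across the inner mitochondrial membrane. Their expression was followed in liver of dairy cows before and after calving, on 2 rations that differed in phosphorus. Members were the genes whose symbol on the array is SLC25A followed by a number, each read from its brightest probe set, with SLC25A3, SLC25A13 and SLC25A15 left out. This gave 40 of the 20011 genes with a symbol of their own.

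Liver RNA of 10 multiparous Holstein-Friesian cows was hybridised to Affymetrix bovine gene arrays, 1 array per cow before calving (antepartum) and 1 after it (postpartum), 20 arrays in all. Cows A to E received a dry-period ration with low phosphorus (LP, 0.16% of dry matter, with urea added to its concentrate to level the nitrogen). Cows F to J received an adequate ration (AP, 0.35%, with mono-ammoniumphosphate as the supplement), in each case over the final 4 weeks of the dry period. Feed was restricted to 11.5 kg of dry matter in the dry period in both diets, and after calving all cows ate the same lactation ration with adequate phosphorus. The LP postpartum group is therefore a group of cows fed adequate phosphorus since calving. The study assigned 30 cows, and the 4 groups of 5 arrays are from 10 of them.

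A carrier of this family is built from repeats of a membrane-spanning unit and usually exchanges a compound of the matrix for another of the cytosol. In hepatocytes, this traffic serves oxidative phosphorylation (ADP for ATP), fatty acid oxidation (acylcarnitine for carnitine), fatty acid synthesis (citrate export), urea synthesis and gluconeogenesis (aspartate, glutamate, ornithine and malate) and the supply of cofactors. Around calving, the liver of a dairy cow takes up fatty acids released from adipose tissue and raises its glucose output for milk.

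Values are log2 signals, so a difference of 1 is a doubling, and signals of different genes are not set against each other. SLC25A2, an ornithine carrier, and SLC25A31, an adenine nucleotide carrier best known from testis, had mean signals below the lower quartile of all probe sets, at 4.80. Between arrays of the same group, the residual standard deviation (SD) of the members ranged from 0.13 to 0.57, with a median of 0.25 against 0.22 for all genes. It was largest for SLC25A36, SLC25A33, SLC25A30 and SLC25A47, at 0.57, 0.52, 0.47 and 0.43. Without the postpartum array of LP cow C, which stands apart from the others, the largest were those of SLC25A33, SLC25A30 and SLC25A47, at 0.46, 0.45 and 0.40. The median was then 0.21 for the members and for all genes.

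The tissue was checked against marker genes. ALB, the hepatocyte product albumin, lay between 13.58 and 13.78 on all arrays. Of 7 hepatocyte markers it had the narrowest range, and TTR (12.16 to 13.27) and AHSG (12.04 to 13.05) the widest. On the postpartum array of LP cow C the fibroblast and adipocyte scores (mean signal of a marker list minus its mean over all arrays) were 4.50 and 3.75, against at most 0.75 and 0.12 on any other array. Its endothelial score was 1.02, with 0.18 the next highest, and its score on the first principal component of all genes was 85.8, with all others between -10.3 and 2.65. The antepartum array of AP cow F had a skeletal muscle score of 1.34 and cow C's postpartum array 1.29, against at most 0.16 elsewhere. In bulk tissue, fewer cells of a type and less RNA per cell cannot be told apart. The counts of calls, and members' values over both diets or between diets that turned or moved by over 1.5 times without cow C's array, are also given without it.

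After calving, 2 of the 40 carriers were called over both diets, both higher: SLC25A30, a relative of the uncoupling proteins first described in kidney, and SLC25A47, a liver-enriched carrier whose substrate is debated. SLC25A30 rose by 0.97 on the log2 scale (standard error, SE, 0.19), which is 1.95-fold, and SLC25A47 by 0.76 (SE 0.18), 1.70-fold. Calls are limma tests with Benjamini-Hochberg adjustment over 20011 genes at 0.05. The members' share of 5% stood beside 1.5% of all genes called in either direction and 0.7% called higher. At an unadjusted p under 0.05 there were 7 members, all higher, which is 17.5% beside 11.9% of all genes. In all, 26 of 40 members had a positive difference, with a median of 0.06, while 46.1% of all genes did, with a median of -0.01.

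**Figure D1:**
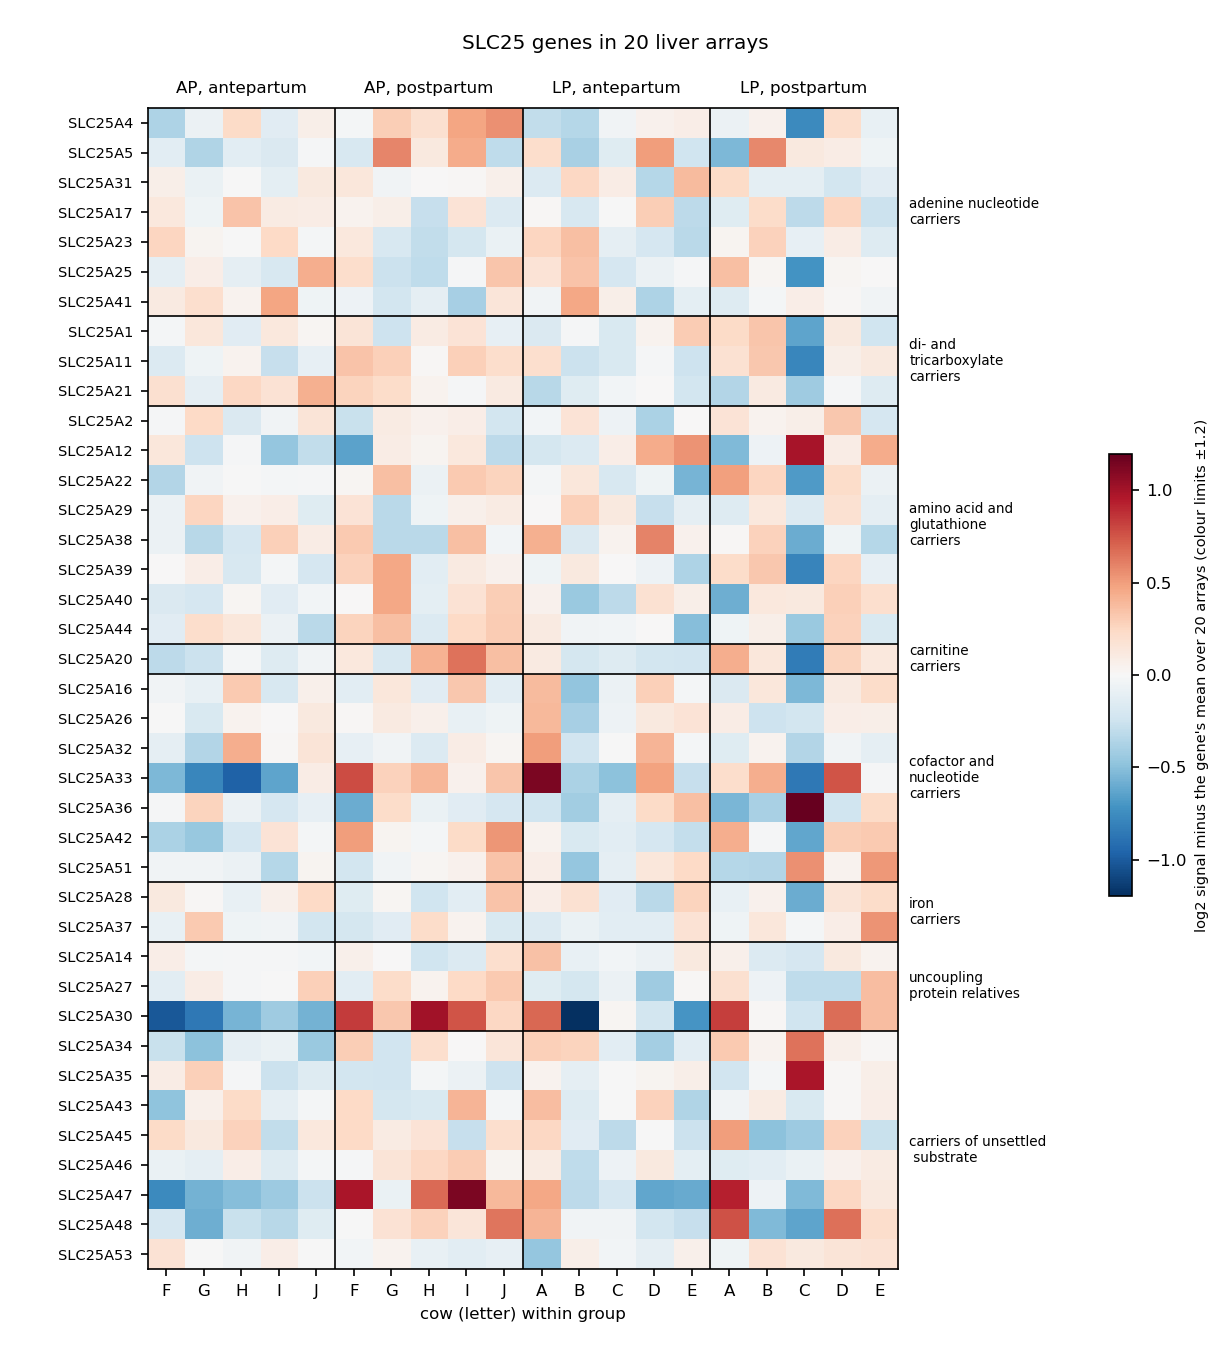
Log2 signal of 39 SLC25 genes (rows, by role) on 20 liver arrays (columns, cows within the 4 groups), as the difference from the gene's mean over all arrays. SLC25A30 and SLC25A47 are low in all 5 AP antepartum arrays, and the LP postpartum array of cow C differs from its group in many rows (its SLC25A36, at 9.71, is beyond the colour limit).

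SLC25A30 was at 8.96, 9.12, 9.41, 9.55 and 9.40 antepartum in AP cows F, G, H, I and J. After calving the same cows had 10.81, 10.30, 10.98, 10.72 and 10.22. These groups did not overlap, and each cow was higher after calving, by 0.81 to 1.85. In LP cows A, B, C, D and E it was at 10.66, 8.78, 9.99, 9.75 and 9.26 antepartum and at 10.80, 9.99, 9.73, 10.65 and 10.34 postpartum. Those groups overlapped: cow A was already high before calving, and cow C was lower after it. The rise in AP was 1.32 (SE 0.27), 2.49-fold, with a limma adjusted p of 0.0286. In LP the difference was 0.61 (SE 0.27, 4 of 5 cows higher) and did not pass, with an adjusted p of 0.798. Over both diets 9 of 10 cows were higher (limma adjusted p 0.0104). The gene lies on chromosome 12, plus strand, from 15590375 to 15614506 in the deposited annotation, for which the sources used here give no genome build.

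SLC25A47 followed a like course. Its antepartum signals in AP cows F, G, H, I and J were 7.44, 7.64, 7.69, 7.77 and 7.95, and its postpartum signals were 9.19, 8.12, 8.89, 9.33 and 8.59. The lowest postpartum value, that of cow G, was above the highest antepartum value. In LP cows A, B, C, D and E the signals were 8.67, 7.89, 8.00, 7.58 and 7.60 antepartum and 9.14, 8.14, 7.68, 8.45 and 8.32 postpartum. Cow A again began highest and cow C again was lower after calving, so that the LP groups overlapped. The rise was 1.13 (SE 0.25) in AP, 2.18-fold, with a limma adjusted p of 0.0461. The LP difference of 0.40 (SE 0.25) did not pass (adjusted p 0.864). Over both diets the adjusted p was 0.0291, with 9 of 10 cows higher. SLC25A47 lies on chromosome 21, plus strand, from 66877661 to 66882899 in that annotation, 12.0 kb from SLC25A29, a basic amino acid carrier on the other strand. SLC25A29 differed by -0.04 over both diets and did not pass, and the signals of the pair correlated with r = 0.12 over the 20 arrays, which share cows.

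The call of SLC25A30 over both diets held without any 1 cow. That of SLC25A47 was lost without cow D, E, F, H, I or J (adjusted p 0.0519 to 0.114), and without the antepartum array of cow F alone (0.0614). Within AP, both calls were lost without cow F, H, I or J, or without cow F's antepartum array, with adjusted p of 0.0911 to 0.285, although the differences stayed at 0.97 or more. In AP the call of SLC25A30 was also lost without cow G (0.0717), and that of SLC25A47 without LP cow B, D or E (0.0550 to 0.0650).

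**Figure D2:**
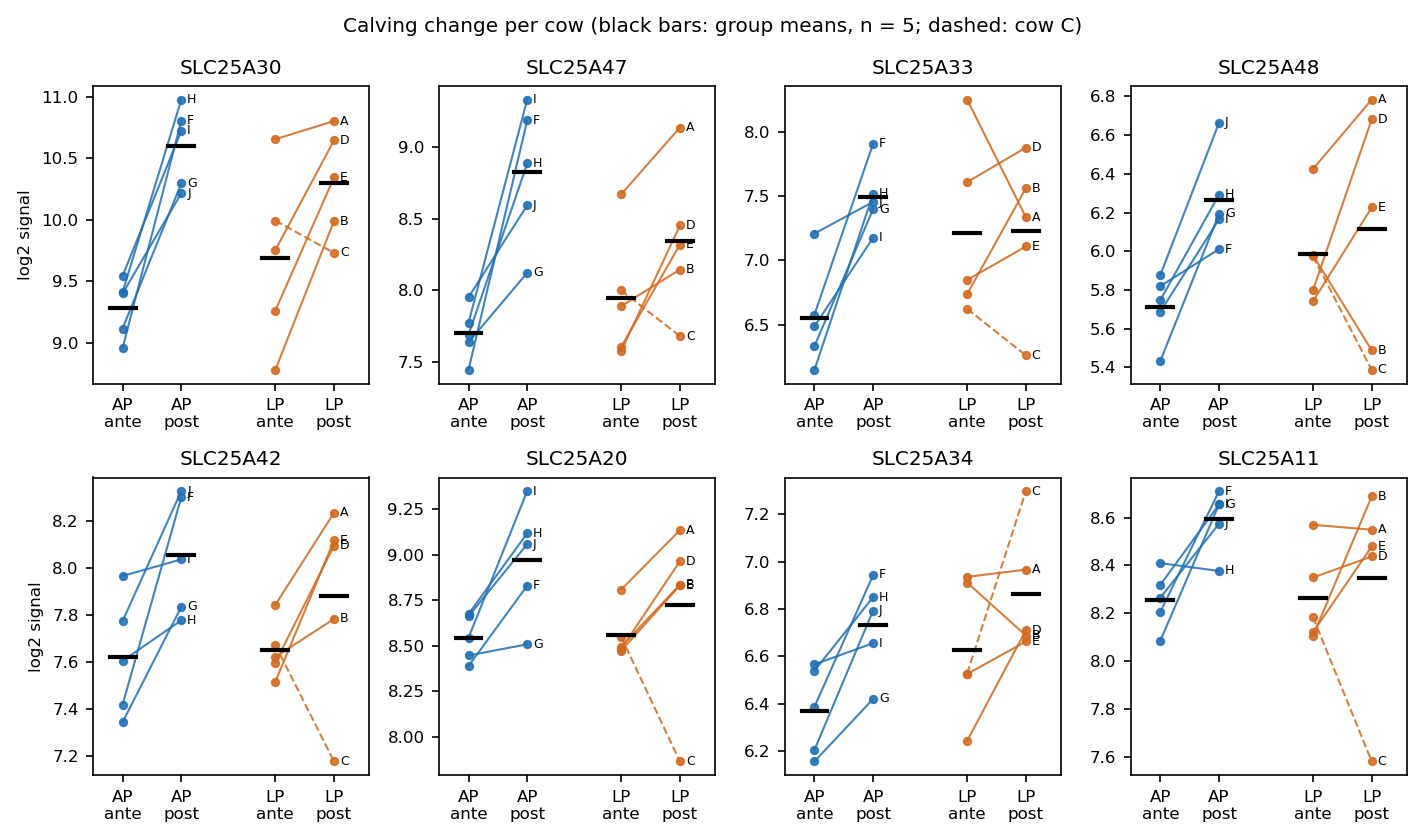
Log2 signal before and after calving for 8 SLC25 genes, each line 1 cow (AP blue, LP orange, letters at the postpartum end), black bars the group means of 5 cows. In AP all 5 lines of SLC25A30, SLC25A47, SLC25A33, SLC25A48, SLC25A42, SLC25A20 and SLC25A34 go up, and the dashed line of cow C goes down in 7 of the 8 panels, all but SLC25A34.

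In AP cows alone the 2 called carriers made 5% of the members, beside 0.415% of all genes in either direction and 0.25% higher. Unadjusted, 10 members (25%) had p under 0.05, 9 of them higher, beside 9.2% of all genes. Without the antepartum array of cow F there were 5 (12.5%), beside 7.89%. SLC25A30, SLC25A47 and SLC25A48 had postpartum arrays that did not overlap the antepartum ones, which is 7.5% of members beside 4.2% of all genes. In LP cows no member was called, beside 0.015% of all genes, and 2 members (5%) had an unadjusted p under 0.05, beside 5.96%. Without cow C's postpartum array there were 6 (15%), beside 6.18% of all genes, and again none was called. No member's LP groups were without overlap, beside 0.61% of all genes. The diet by time interaction, the test of whether the calving change differed with diet, called none of the 40 and 0% of all genes. By limma's unadjusted p under 0.05 it counted 2 members (5%) beside 2.79% of all genes. It counted 1 (2.5%) without cow C's postpartum array, beside 3% of all genes, and 1 without cow F's antepartum array, beside 2.41%. The interaction was -0.70 for SLC25A30 (95% interval -1.49 to 0.08) and -0.73 for SLC25A47 (-1.46 to 0.00), so a difference between the diets in these rises was not shown.

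The postpartum array of cow C was the lowest of the 10 postpartum arrays for 19 of the 40 members and the highest for 5. The same counts over all genes were not made. Without cow C's array, 5 members were called over both diets, all higher, which is 12.5% beside 2.73% of all genes. An unadjusted p under 0.05 was found for 11 (27.5%), beside 13.7%. SLC25A30 then rose by 1.04 and SLC25A47 by 0.85 (limma adjusted p 0.00334 and 0.00601). Added to them were SLC25A20, the carnitine-acylcarnitine carrier, by 0.41 (SE 0.09), SLC25A42, the coenzyme A carrier, by 0.42 (SE 0.10), and SLC25A11, the oxoglutarate-malate carrier, by 0.30 (SE 0.07). Their adjusted p values were 0.0181, 0.0190 and 0.0287. With that array included, the 3 had differences of 0.30, 0.33 and 0.21 and did not pass. In AP the called members were again 2 without it, beside 1.43% of all genes. The part of fibroblast and adipocyte RNA in these values was not tested.

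The carnitine carrier SLC25A20 brings long-chain acyl groups into the matrix for oxidation. Its signals in AP cows F, G, H, I and J were 8.39, 8.45, 8.67, 8.54 and 8.66 antepartum and 8.83, 8.51, 9.12, 9.35 and 9.06 postpartum. In LP cows A, B, C, D and E they were 8.81, 8.49, 8.55, 8.48 and 8.47, and then 9.13, 8.84, 7.86, 8.96 and 8.83. Every cow except C was higher after calving, so that 9 of 10 went up. In LP the 4 other postpartum values were above all 5 antepartum ones. How many of all genes separate in this way without cow C's array was not counted.

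Among the 8 measured cofactor and nucleotide carriers none was called. SLC25A42 had antepartum signals of 7.42, 7.34, 7.60, 7.97 and 7.77 in AP cows F, G, H, I and J, and postpartum signals of 8.30, 7.83, 7.78, 8.04 and 8.33. In LP cows A, B, C, D and E it went from 7.84, 7.62, 7.67, 7.60 and 7.51 to 8.23, 7.78, 7.18, 8.09 and 8.12. As for SLC25A20, cow C was the exception among 10. SLC25A33, a pyrimidine nucleotide carrier, was at 6.58, 6.34, 6.15, 6.49 and 7.21 in AP antepartum and at 7.91, 7.40, 7.52, 7.18 and 7.45 postpartum. All 5 AP cows were higher after calving, and only cow J's antepartum value reached into the postpartum range. The AP difference was 0.94 (SE 0.30) and did not pass, with a limma adjusted p of 0.205. It passed in only 2 of 24 alternative settings, with array weights (0.0454) and in a fit of the AP arrays alone (0.0201). In the others its limma adjusted p reached 0.547.

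In LP cows A, B, C, D and E, SLC25A33 was at 8.25, 6.74, 6.63, 7.61 and 6.85 antepartum and at 7.34, 7.56, 6.26, 7.88 and 7.11 postpartum. Cows A and C were lower after calving and the other 3 higher, for a mean difference of 0.02, or 0.26 without cow C's postpartum array. Its interaction of -0.92 (unadjusted p 0.0387, adjusted 1.00, limma) was the largest in size among the members. That interaction was -0.68 without cow C's postpartum array (limma unadjusted p 0.0830) and -0.69 without cow A. The other 6 had differences over both diets between -0.16, for the folate and FAD carrier SLC25A32, and 0.12, for the NAD carrier SLC25A51. Without cow C's postpartum array SLC25A51 was at 0.06, and SLC25A36 went from 0.06 to -0.17 and the coenzyme A-linked SLC25A16 from -0.03 to 0.03. SLC25A26, an S-adenosylmethionine carrier, went from -0.04 to -0.02. SLC25A36, a second pyrimidine nucleotide carrier, was at 9.71 on cow C's postpartum array and between 7.10 and 8.05 on the other 19.

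The carriers of unsettled or only recently proposed substrate numbered 8, with SLC25A47 the 1 call. Differences over both diets were positive for all 8, from 0.00 to 0.76, and for 7 of 8 without cow C's postpartum array or without cow F's antepartum array. The negative value was that of SLC25A35 without cow C's array, at -0.10, and of SLC25A43 without cow F's, at -0.01. SLC25A48 was at 5.82, 5.43, 5.75, 5.69 and 5.88 antepartum in AP cows F, G, H, I and J and at 6.01, 6.19, 6.29, 6.17 and 6.66 postpartum. Its AP groups did not overlap, yet the difference of 0.55 (SE 0.22) did not pass (limma adjusted p 0.390). In LP cows it went from 6.42, 5.98, 5.97, 5.80 and 5.74 to 6.78, 5.49, 5.39, 6.68 and 6.23, with cows B and C lower and the other 3 higher. SLC25A34 differed by 0.30 (SE 0.11) over both diets, with 9 of 10 cows higher, and did not pass (adjusted p 0.199). SLC25A53 had AP values from 5.27 to 5.48 antepartum and from 5.19 to 5.35 postpartum, and LP values from 4.85 to 5.38 and from 5.26 to 5.49. All 5 LP cows were higher after calving, by a mean of 0.21 (SE 0.10, adjusted p 0.829). The interaction of SLC25A53 was 0.31 (unadjusted p 0.0376, adjusted 1.00, limma). Without cow C's postpartum array it was again 0.31 (limma unadjusted p 0.0443). The remaining 4, SLC25A35, SLC25A43, SLC25A45 and the outer-membrane protein SLC25A46, lay between 0.00 and 0.11 over both diets. Without cow C's array SLC25A43 was at 0.06 and SLC25A45 at 0.05, beside the -0.10 of SLC25A35.

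None of the 7 measured adenine nucleotide carriers was called. SLC25A4, the ADP/ATP carrier best known from heart and muscle, had AP signals of 8.65, 8.96, 9.25, 8.89 and 9.09 antepartum in cows F, G, H, I and J and of 9.00, 9.32, 9.21, 9.49 and 9.57 postpartum. All AP cows but H were higher after calving, for a difference of 0.35 (SE 0.16, limma adjusted p 0.504). SLC25A5, the ADP/ATP carrier of proliferating cells, differed by 0.29 in AP and 0.05 in LP. SLC25A41 and SLC25A23, ATP-magnesium/phosphate carriers, had AP differences of -0.29 and -0.23, and neither passed. Their probe sets lie on the same strand of chromosome 7 and their annotated spans overlap by 6831 bases, so their signals (r = 0.63 over 20 arrays) may not be separate measurements. SLC25A25, of the same subfamily, the peroxisomal SLC25A17 and SLC25A31 differed by -0.07, -0.08 and -0.04 over both diets. Without cow C's postpartum array SLC25A25 was at 0.02 and SLC25A17 at -0.05.

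The 3 measured carriers of di- and tricarboxylates held no call. SLC25A11, part of the malate-aspartate shuttle, was at 8.21, 8.32, 8.41, 8.09 and 8.27 antepartum in AP and at 8.71, 8.65, 8.38, 8.65 and 8.57 postpartum. In LP it was at 8.57, 8.11, 8.18, 8.35 and 8.12, and then at 8.55, 8.69, 7.58, 8.44 and 8.48. The value of cow C was the lowest of all 20. The citrate carrier SLC25A1 differed by -0.02 over both diets and the oxodicarboxylate carrier SLC25A21 by -0.04. Without cow C's postpartum array these were 0.05 and -0.01.

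Of the 8 measured amino acid and glutathione carriers none was called, and 6 had positive differences over both diets, or 5 without cow C's postpartum array. The glutamate carrier SLC25A22 had the highest, at 0.22, and SLC25A38, a glycine carrier of haem synthesis, the lowest, at -0.14. The glutathione carriers SLC25A39 and SLC25A40 differed by 0.14 and 0.19, the branched-chain amino acid carrier SLC25A44 by 0.13, the aspartate-glutamate carrier SLC25A12 by 0.04 and SLC25A2 by 0.03. With cow C's array left out, SLC25A39 was at 0.23, SLC25A38 at -0.08, SLC25A12 at -0.06 and SLC25A29 at -0.02. The iron carriers SLC25A28 and SLC25A37 differed by -0.08 and 0.08. SLC25A37 had a pair of probe sets, which gave 0.08 and 0.09. SLC25A28 was at -0.02 without cow C's array. The other relatives of the uncoupling proteins, SLC25A14 and SLC25A27, differed by -0.06 and 0.12 beside the rise of SLC25A30. SLC25A14 was at -0.04 without cow C's array.

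**Figure D3:**
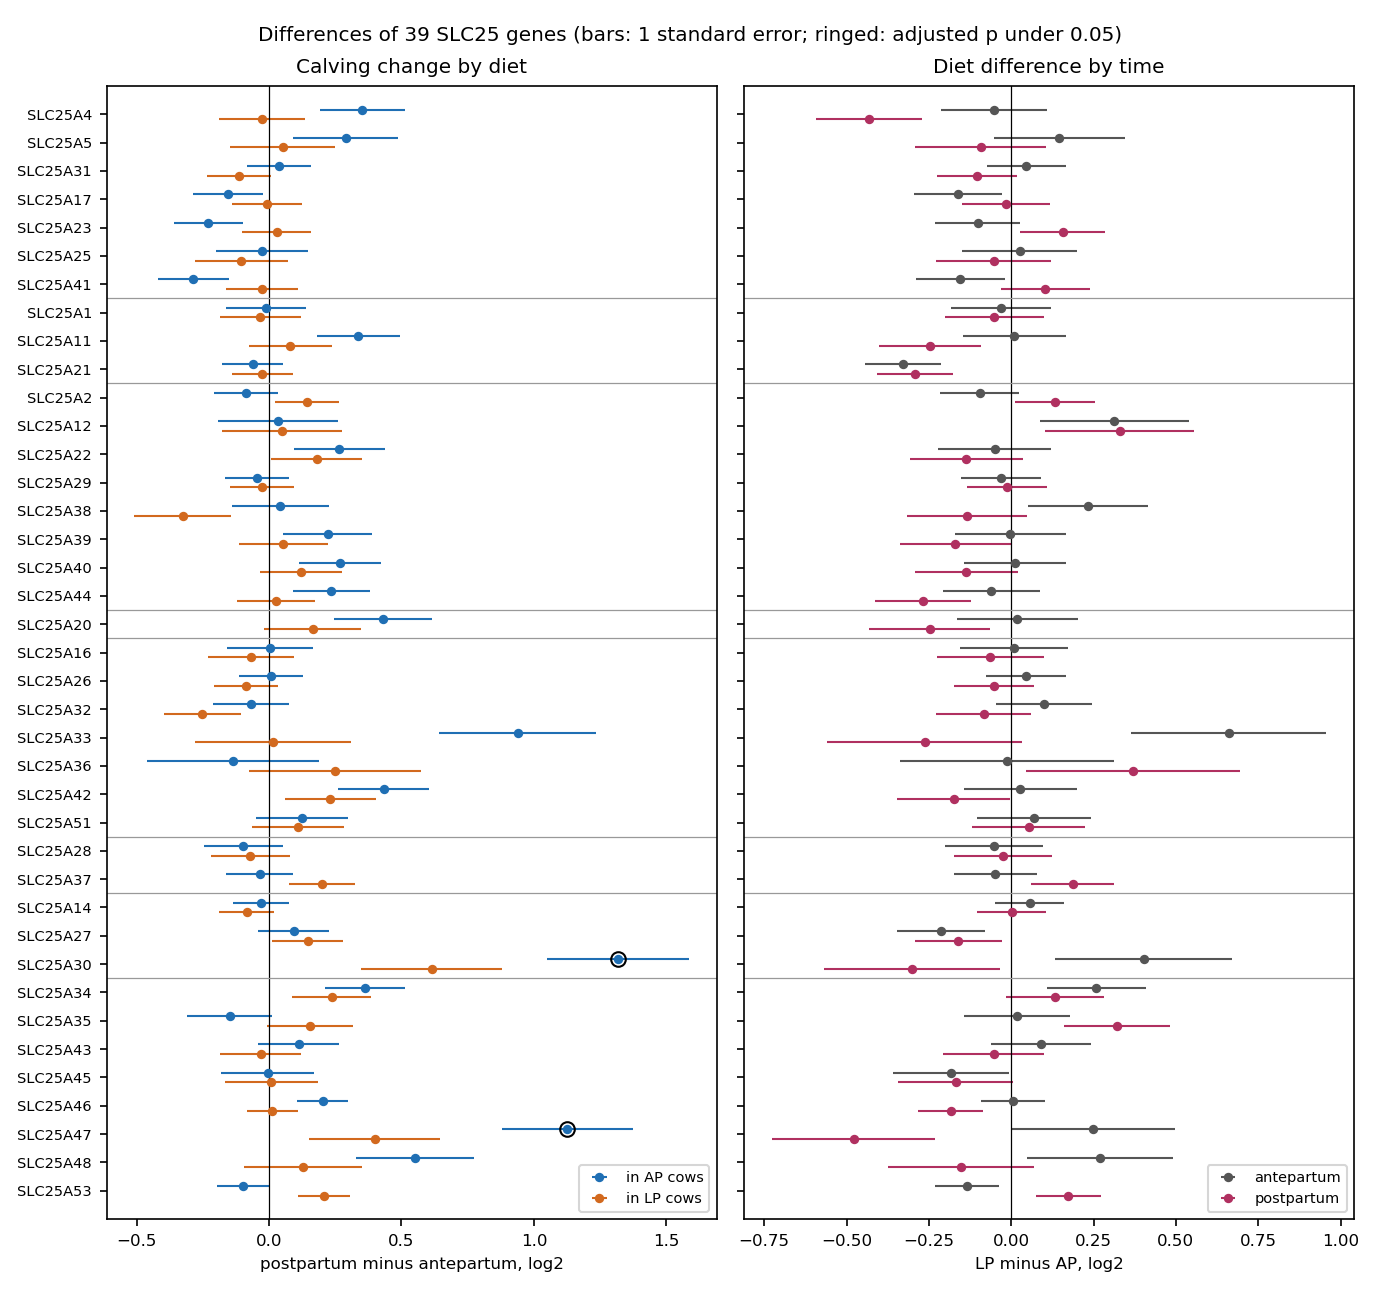
Log2 differences of 39 SLC25 genes by role, left postpartum minus antepartum in AP and in LP cows, right LP minus AP antepartum and postpartum, with bars of 1 standard error and rings at an adjusted p under 0.05. Rings mark SLC25A30 and SLC25A47 in AP cows, and no diet difference is ringed.

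LP cow A had high signals of some members before calving. Of the 7 members with an unadjusted p under 0.05 for the calving change, cow A's antepartum array was the highest of the 10 antepartum arrays for 6, and of all 40 members for 12. The exception among the 7 was SLC25A42, for which cow I was higher. Cow A was singled out after its values were seen, and the same counts over all genes were not made.

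Phosphorus in the dry-period ration gave no call among the 40 members. Antepartum, postpartum and over both times, limma called 0 members, beside 0.005% of all genes each time. Unadjusted p values under 0.05 were found antepartum for 3 members (7.5%, beside 2.45% of all genes), postpartum for 2 (5%, beside 5.66%) and over both times for 2 (5%, beside 3.64%). With cow C's array left out the postpartum count was 0, beside 4.51% of all genes, and limma again called none. For no member did the LP arrays lie apart from the AP arrays, beside 0.55% of all genes antepartum and 0.645% postpartum. The widest 95% interval of a diet difference within 1 time reached 0.68 to either side of its estimate, so a difference within it cannot be told from 0 for that gene.

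SLC25A21, which carries oxoadipate from lysine and tryptophan breakdown, had the lowest unadjusted p. Antepartum it was at 6.41, 6.60, 6.71, 6.75 and 6.52 in LP cows A, B, C, D and E and at 6.93, 6.63, 6.99, 6.91 and 7.17 in AP cows F, G, H, I and J. Postpartum it was at 6.39, 6.85, 6.32, 6.73 and 6.59 in LP and at 7.00, 6.96, 6.79, 6.73 and 6.84 in AP. Before calving the AP values were above the LP values except for cow G, and after it cow B's value was the highest in LP and within the AP range. LP minus AP was -0.33 (SE 0.12) antepartum, -0.29 (SE 0.12) postpartum and -0.31 (SE 0.09) over both times, with -0.23 postpartum without cow C's array. The value over both times had an unadjusted p of 0.00335 and an adjusted p of 1.00 by limma.

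SLC25A33 had the largest diet difference antepartum, 0.66 (SE 0.30, unadjusted p 0.0365, limma). It was 0.40 without cow A, whose 8.25 was the highest of all 20 arrays.

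Postpartum, SLC25A4 was at 8.95, 9.07, 8.25, 9.23 and 8.93 in LP cows A, B, C, D and E, beside the AP values above. LP minus AP was -0.43 (SE 0.16, unadjusted p 0.0141, adjusted 0.812, limma), and -0.27 without cow C's array. Antepartum, LP values of 8.73, 8.68, 8.98, 9.07 and 9.11 gave a difference of -0.05. SLC25A12, which supplies aspartate to the cytosol, was 0.31 higher in LP antepartum and 0.33 postpartum, and passed neither test. The postpartum value was 0.13 without cow C, whose 6.72 was the highest of all arrays. SLC25A35 was 0.32 higher in LP postpartum, and 0.12 higher without cow C, at 5.95. The largest diet difference postpartum in size was that of SLC25A47, with LP minus AP at -0.48, and it did not pass. Without cow C's array it was -0.31. SLC25A27 was at -0.19 over both times and SLC25A34 at 0.20, without passing.

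Postpartum, 28 of 40 members had a negative LP minus AP difference, with a median of -0.07, against a median of 0.00 for all genes. Without cow C's array, 20 of the 40 were positive. The interaction was negative for 26 of 40, with a median of -0.08, and positive for 17 without that array.

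**Figure D4:**
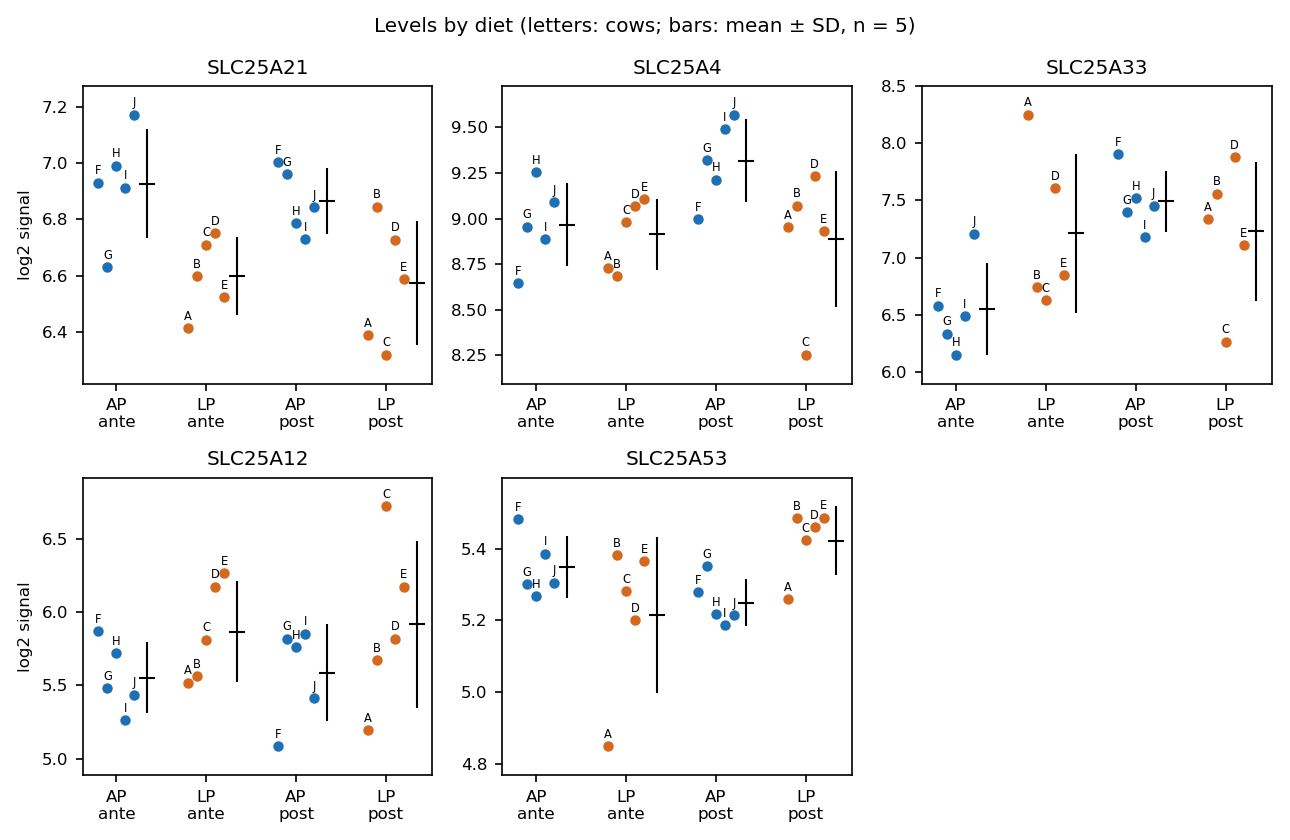
Log2 signal of 5 SLC25 genes in the 4 groups, each point 1 array with its cow's letter, bars the mean ± SD of 5 arrays. LP points overlap AP points at both times for every gene shown, and cow C's is the lowest postpartum array of SLC25A4, SLC25A33 and SLC25A21 and the highest of SLC25A12.

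Genes that work beside the carriers were read from lists of enzymes, transporters and regulators. Of 5 carnitine enzymes, CPT1B, the muscle-type carnitine palmitoyltransferase of the outer membrane, rose by 0.87 over both diets (SE 0.18, limma adjusted p 0.0150), and by 1.17 in AP (adjusted p 0.0449). All 5 had positive differences over both diets, with a median of 0.28, while 46.1% of all genes were positive. Of 12 shuttle enzymes, OGDH, a subunit of the oxoglutarate dehydrogenase complex, rose by 0.55 (SE 0.10, adjusted p 0.00953). Of 18 other mitochondrial transporters, MPC1, of the pyruvate carrier, rose by 0.53 (SE 0.11, adjusted p 0.0168). Of 15 cofactor and iron enzymes, FLAD1, the FAD synthase, rose by 0.55 (SE 0.13, adjusted p 0.0318). Each of these 4 was the 1 call of its list over both diets, beside 1.5% of all genes, and was higher in 9 of 10 cows. CPT1B lost its call without cow D, E, F or I, MPC1 without D, E, H or I, and FLAD1 without any 1 of 8 cows (all but A and C) or without cow F's antepartum array, with adjusted p up to 0.124.

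No gene in these lists was called lower over both diets. Among 9 regulators of mitochondrial biogenesis, PPARGC1A, the coactivator PGC-1alpha, differed by 0.52 (SE 0.14, limma adjusted p 0.0810). It passed with the cow as a block (0.0236). Of 14 genes of carrier import, TOMM20, a receptor of the outer membrane, had the lowest p, with a difference of -0.29 (adjusted p 0.313). None of 5 related carriers passed, and UCP3, an uncoupling protein best known from muscle, was at -0.12. In AP, OGDH rose by 0.72 (adjusted p 0.0287), a call lost with the cow as a block (0.0525). No list gene passed in LP cows or for diet.

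Marker lists moved with the same comparisons. After calving 4 of 7 hepatocyte markers were called lower, TTR by 0.61, AHSG by 0.43, CYP2E1 by 0.34 and TF by 0.25. Another 2 of the 7 had positive differences over both diets. Beside these calls, 1.5% of all genes were called over both diets in either direction. The list's score was 0.04 to 0.17 antepartum and -0.26 to 0.01 postpartum. With the cow as a block, AHSG and TF did not pass (limma adjusted p 0.0978 and 0.0721). Of 10 macrophage markers only 1 had a positive difference over both diets, with a median of -0.39. The 1 called lower was C1QC, by 0.56. Before calving the macrophage score was -0.10 to 0.64 in LP and -0.24 to 0.19 in AP, with all 10 markers higher in LP and none called. No marker can be at 0 on this scale, and ADIPOQ, a defining adipocyte gene, ranged from 4.27 to 11.26. The part of these markers in the members' values was not tested.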

How the data were processed

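Liver RNA of 10 cows was measured on 20 Affymetrix arrays. The authors deposited log2 signals for 24333 probe sets. The submitters' processing notes name Affymetrix Expression Console 1.4 and RMA, and the deposited workbook names SST-RMA. RMA gives arrays nearly the same distribution (array medians 5.97 to 6.14), so a shift common to all genes cannot be seen. No detection call was used, and the 5 arrays per group limit the precision.

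From these values, genes were symbols given alone to a probe set (20421 probe sets, 20011 genes, brightest probe set). Another 3912 probe sets had no symbol and were not used. Differences were tested two-sided with limma 3.58.1 in R 4.3.3 on 4 group means over all 20 arrays, with Benjamini-Hochberg adjustment over all genes in each of 7 comparisons. Diet over both times used each cow's mean. The fit was tested on simulated data with independent arrays. These had no pairing by cow and no outlying array, so they do not bear on the choice to leave out the cow. All 40 members matched the ARS-UCD2.0 gene table by symbol, and 35 of 36 matched by accession had the same symbol. The exception was the brighter probe set of SLC25A37. No member was marked as cross-hybridizing. Sequences were not used here. SLC25A6, SLC25A10, SLC25A18, SLC25A24 and SLC25A52 were not analysed here.

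Members passing any test, and the 3 of lowest p per direction and comparison, are named with values, though not always with the value of that comparison. From each list, genes that passed or the gene of lowest p are named. The values of 1 member are not reported here, though the counts include it. The members and lists were chosen with earlier results of these data known. Arrays of the same animal number are pairs from 1 cow, and their residuals correlated at 0.07 to 0.31, median 0.167, over 0.1 in 8 of 10 cows. The fit without the cow was kept, with the cow as a block beside it. Other alternatives were normalization, filters on dim genes, probe set choice, variance model, array weights, groups in the fit, running number, rounded table and left-out cows or arrays.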

Additional observations from a re-analysis of the deposited data

Results flagged for a closer look

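Dixon's ratio was taken in 160 groups of 5 arrays, with a 95% critical value of 0.71. In 14 groups, across 11 members, the highest or lowest array was set apart by more than this. Independent groups of normally spread values would give about 8. The groups here share arrays and the count over all genes was not made, so an excess among the members was not shown. The postpartum array of LP cow C accounted for 3, with SLC25A11 low at 7.58 (next 8.44), SLC25A20 low at 7.86 (next 8.83) and SLC25A35 high at 5.95 (next 5.03). Cow A, also LP, was high antepartum in SLC25A20 at 8.81. After calving cow A was high in SLC25A31 at 3.30, and low in SLC25A40 at 6.07 and SLC25A53 at 5.26. LP cow E was high antepartum in SLC25A37 at 7.71 and low in SLC25A44 at 7.91. Among AP cows, F was high antepartum in SLC25A14 at 5.43 and low in SLC25A22 at 7.49. Cow I was low in SLC25A45 both before and after calving, at 5.75 and 5.77. Cow H was low postpartum in SLC25A44 at 8.26.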

How the results depend on the processing

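Of the named members' differences, 933 kept direction and side of the threshold, 22 lost a call, 2 gained 1 and none reversed. With the replicate block, pairing arrays by cow, the same members were called over both diets (2) and in AP (2), and of all genes 381 in place of 300 and 126 in place of 83. Over both diets, the count of called members was 5 with array weights, 5 without cow C's postpartum array, 1 without cow F's antepartum array and 1 to 4 when leaving out each cow. In AP it was 1 with quantile normalization, 4 with array weights, 4 in a fit of the AP arrays alone, 0 without cow F's antepartum array and 0 to 2 when leaving out each cow. Leaving out an LP cow moved the AP count to 1 for B, D and E, where the AP differences are the same and only the shared spread changes. In the other 5 comparisons no member was called under any alternative run. All genes called ranged from 131 to 654 over both diets and from 13 to 613 in AP. When leaving out each cow they ranged from 131 to 449 and from 13 to 243. Without cow C's postpartum array they made 2.73% over both diets and 1.43% in AP. Shares of all genes are not given here for each other setting, so the member counts by setting are not read as a result about the members. SLC25A47 in AP had an adjusted p of 0.0600 with quantile normalization. The fit of compared groups alone was not run for time over both diets, diet over both times or the interaction. Diet over both times, on cow means, had no block fit and none without a single array. With 5 cows per group, the median standard error of a member's difference was 0.15 within 1 time or diet and 0.22 for the interaction.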
